A study of Mus musculus with 4 samples.

Results

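Cytosolic ribosomal proteins are the protein part of the ribosome that translates messenger RNA in the cytoplasm. They were examined here in mouse embryonic stem (ES) cells with and without Snai1, the gene of the zinc finger repressor Snail. The genes were taken by symbol, as Rpl or Rps with a number and an optional a, x or y, as Rplp with a digit, or as Rpsa. A gene entered when at least 1 probe set of the array was annotated with its symbol and no other, and the brightest such probe set, by the mean of 4 arrays, stood for it. This gave 42 of the 18193 genes tested, 20 of the small subunit, 20 of the large subunit and the 2 stalk genes Rplp0 and Rplp2. These 42 genes had 94 probe sets of their own.

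The 4 Affymetrix arrays were hybridised with RNA from 2 samples of Snai1 knockout ES cells (titled KO.ES) and 2 samples of control ES cells (titled F/F.ES, genotype field control). All cells were grown on a feeder layer with leukaemia inhibitory factor, which keeps ES cells self-renewing, and the RNA was labelled from its 3' end. The labels do not say what F/F stands for, how or in which clone the gene was deleted, or what separated the replicates, so the p-values cover only the variation among these 4 samples, and the source name of the control samples also carries the words knock out. Values are log2 expression values as the authors deposited them, so a difference of 1 is a doubling of signal, and each difference is knockout minus control.

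A ribosome needs nearly every one of these proteins, made in step with ribosomal RNA. Their transcripts are among the most abundant in growing cells and typically begin with a tract of pyrimidines (C or T), the 5' terminal oligopyrimidine (TOP) tract, through which mTOR signalling and the RNA-binding protein Larp1 control their translation. Mammalian genomes also carry many processed pseudogenes of them, close copies that array probes can match as well.

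The windows around the annotated transcription starts are shown for Rpl27a, the next largest falls (Rps6 and Rpl14) and the largest rises (Rps27, Rpl37 and Rps15). They are given because the TOP tract is the sequence feature that ribosomal protein genes are best known to share. Each runs from 30 bases before to 25 bases after the RefSeq start (build GRCm38.p6), 5' to 3' on the gene's strand. The capitals mark the longest run of C and T anywhere in the window, which need not be a TOP tract.
Rpl27a, chr7:109519165-109519219, plus strand: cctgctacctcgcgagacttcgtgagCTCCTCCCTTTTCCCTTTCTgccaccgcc
Rps6, chr4:86857343-86857397, minus strand: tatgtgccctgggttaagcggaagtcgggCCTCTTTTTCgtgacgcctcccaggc
Rpl14, chr9:120571487-120571541, plus strand: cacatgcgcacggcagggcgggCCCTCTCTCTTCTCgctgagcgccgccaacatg
Rps27, chr3:90213624-90213678, minus strand: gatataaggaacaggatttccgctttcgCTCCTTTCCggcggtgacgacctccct
Rpl37, chr15:5116583-5116637, plus strand: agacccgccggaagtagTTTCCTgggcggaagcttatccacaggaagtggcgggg
Rps15, chr10:80292401-80292455, plus strand: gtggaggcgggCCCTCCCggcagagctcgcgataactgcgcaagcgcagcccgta
Among these 6 windows the run was longest in Rpl27a, at 20 bases across the annotated start, and shortest in Rpl37, at 6 bases.

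The RefSeq promoter table held 37 of the 42 genes, and Rpl7, Rpl8, Rps14, Rps20 and Rps29 had no entry. Of the 37, 29 (78.4%) had a run of 8 or more pyrimidines between 20 bases before and 50 bases after a start, against 27.8% of the 14452 tested genes with an entry. Motifs were searched on both strands over 250 bases before to 50 after the start. The ETS-type motif CCGGAAG stood in 18 of 37 genes (48.6%), Rpl27a among them, against 15.0% of all tested genes. The YY1-type motif AAGATGG stood in 7 (18.9% against 7.54%), the Myc-type E-box CACGTG in 4 (10.8% against 10.2%) and TATAAA in 5 (13.5% against 11.5%). The E-box CAGGTG, the kind that Snail binds, stood in 6 of 37 (16.2%), against 22.9% of all tested genes, and was not in the window of Rpl27a. These matches describe the windows only.

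Most of the 42 genes differed by less than 0.25 between the groups. Among the 42, 1 gene, Rpl27a, differed past the threshold and was lower in the knockout. The threshold was an adjusted p of 0.05 in limma over all 18193 genes. By it, 4.14% of all genes were called, 1.98% as higher and 2.17% as lower, while among the 42 none was called higher and 1 (2.38%) lower. After a further quantile normalization the calls over all genes were 527 higher and 337 lower, in place of 360 and 394, and the count among the 42 stayed at 1. Before adjustment, 5 of the 42 (11.9%) were higher and 3 (7.14%) lower at p under 0.05 in limma, against 9.06% and 14.9% of all genes. The differences had a median of 0.08 (all genes -0.02) and ran from -1.05 for Rpl27a to 0.58 for Rps27. Of the 42, 32 lay within 0.25 and 39 within 0.5 of no difference.

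**Figure D1:**
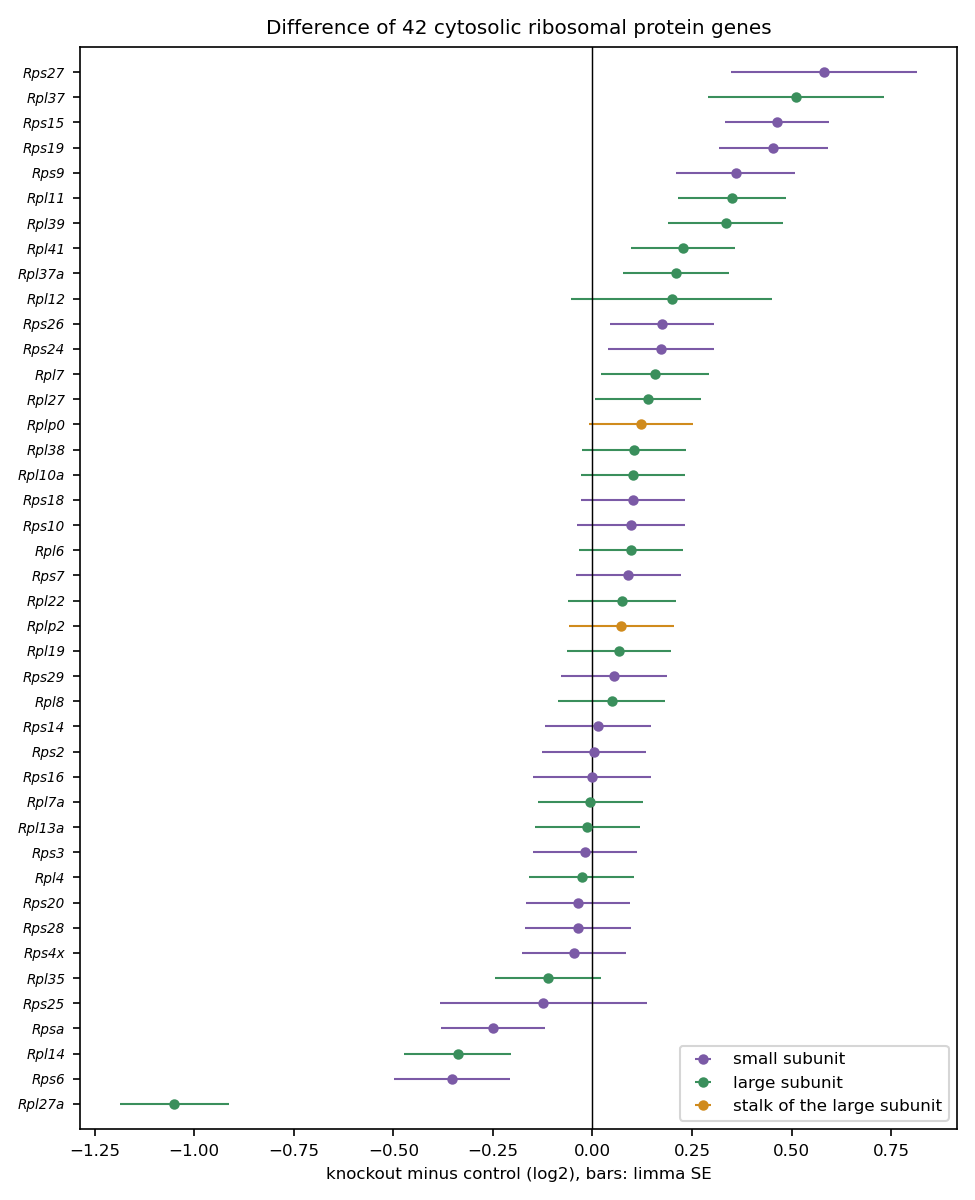
Difference of each of the 42 genes, knockout minus control on the log2 scale (x axis), ordered by size down the page, with points coloured by ribosomal subunit and bars of 1 limma standard error. Rpl27a lies at -1.05, apart from the other 41, which lie between -0.35 and 0.58.

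Rpl27a encodes a protein of the large subunit. It measured 7.67 and 7.50 in the knockout arrays, against 8.62 and 8.65 in the control arrays. Both knockout arrays lay below both control arrays, and the gap exceeded the spread within either pair. The knockout averaged 7.59 ± 0.12 and the control 8.64 ± 0.02 (SD, n = 2 each). Rpl27a fell by 1.05 on the log2 scale (limma SE 0.14, adjusted p = 0.0272), a signal at 48.3% of the control. This ranked 39th from the lowest among the differences of all 18193 genes. Rpl27a was singled out with earlier results of these data known. The call rested on all 4 arrays, since without any 1 of them the adjusted p lay between 0.0652 and 0.127, with the lone array of a group assumed to vary like the remaining pair, while the difference stayed between -1.13 and -0.96.

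Set against the other 41 genes array by array, Rpl27a moved against a median that was slightly higher in the knockout. The median of the other 41 was 14.07 in both knockout arrays, against 13.98 and 13.99 in the control arrays. The gap between Rpl27a and that median was wider in the knockout by 1.14. The next lowest difference of a member, that of Rps6, was -0.35. The level of Rpl27a itself cannot be compared with that of the other genes, because each probe set has its own probes.

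The difference was seen with 1 of 3 probe sets that carry the symbol Rpl27a. The probe set above, 1437729_at, is annotated with Rpl27a alone. A second one annotated with Rpl27a alone, 1419799_at, measured 3.44 and 3.41 in the knockout arrays, against 3.66 and 3.47 in the control arrays, inside the background range, which 27 Bacillus control probe sets put at 2.91 to 4.77. The third, 1426661_at, lists Rpl27a together with 4 gene models, so its signal cannot be given to Rpl27a alone. It measured 14.21 and 14.15 in the knockout arrays, against 14.15 and 14.10 in the control arrays. The difference was 0.05 ± 0.12 (SE, adjusted p = 0.876 over all 45037 probe sets). At this bright probe set the lower knockout array and the higher control array were level, while at 1437729_at the groups stood clearly apart. Averaged over its 2 own probe sets, 1 of them inside the background range, Rpl27a differed by -0.59 (adjusted p = 0.0561 in limma). The sources used here do not say which stretch of the transcript each probe set matches.

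**Figure D2:**
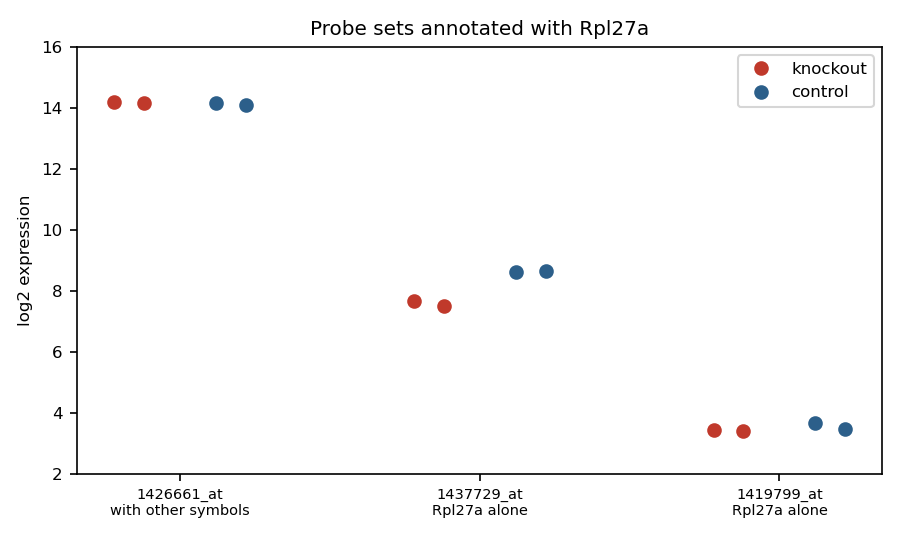
Log2 expression (y axis) of the 3 probe sets annotated with Rpl27a on the 2 knockout arrays (red, left of each pair) and the 2 control arrays (blue). The groups stand apart at 1437729_at and lie close together near 14.15 at the probe set that also lists other symbols and near 3.50 at the background-level one.

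The small subunit decodes messenger RNA. Its 20 genes had a median difference of 0.03, with 12 above and 8 below 0, and none was called in limma (4 higher and 1 lower of the 20 at an unadjusted p under 0.05, 20% and 5%, against the 9.06% and 14.9% of all genes). Rps15, a protein of the small subunit's head, measured 13.86 and 13.92 in the knockout arrays, against 13.42 and 13.44 in the control arrays. The groups were separate, and the difference was 0.46 ± 0.13 (SE, adjusted p = 0.0842). Its second probe set differed by 0.33. Rps19, the gene most often mutated in human Diamond-Blackfan anaemia, measured 14.15 and 14.20 in the knockout arrays, against 13.79 and 13.64 in the control arrays. The difference was 0.45 ± 0.14 (SE, adjusted p = 0.0966). Both genes were called higher when the prior variance was allowed to follow intensity (adjusted p = 0.0379 for Rps15 and 0.0424 for Rps19).

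Rps27, a zinc-binding protein of the small subunit, had the largest positive difference of the 42. It measured 7.41 and 8.02 in the knockout arrays, against 6.92 and 7.35 in the control arrays, so the higher control array lay just below the lower knockout array. The difference was 0.58 ± 0.23 (SE, adjusted p = 0.186). Rps6, the substrate of the S6 kinases, measured 10.36 and 10.60 in the knockout arrays, against 10.79 and 10.88 in the control arrays. The difference was -0.35 ± 0.15 (SE, adjusted p = 0.197). Rpsa, also known as the laminin receptor, measured 14.11 and 14.07 in the knockout arrays, against 14.32 and 14.36 in the control arrays. The difference was -0.25 ± 0.13 (SE, adjusted p = 0.305). The groups of Rps6 and Rpsa did not overlap. Rps29, a zinc-binding protein and among the 3 brightest probe sets, differed by 0.05. The probe set of Rps16 lay at 3.14 in both groups, within the background range, and so gives no reading of that gene.

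The large subunit forms peptide bonds. Its 20 genes outside the stalk had a median difference of 0.10, with 14 above and 6 below 0. Rpl27a was the 1 called (5%, against 4.14% of all genes). At an unadjusted p under 0.05 in limma, 1 was higher and 2 lower (5% and 10%, against 9.06% and 14.9% of all genes). Rpl37, a zinc-binding protein, measured 11.06 and 11.74 in the knockout arrays, against 10.84 and 10.94 in the control arrays. The difference was 0.51 ± 0.22 (SE, adjusted p = 0.214). The lower knockout array lay close to the control arrays. Rpl14 measured 9.77 and 9.89 in the knockout arrays, against 10.15 and 10.19 in the control arrays. The difference was -0.34 ± 0.13 (SE, adjusted p = 0.182), with separate groups. Rpl39, a very small protein of the peptide exit tunnel, measured 7.12 and 7.36 in the knockout arrays, and the control arrays were level at 6.90 and 6.91, a difference of 0.33 ± 0.14 (SE, adjusted p = 0.214). Rpl37a, with the brightest of the 42 probe sets, differed by 0.21 ± 0.13 (SE, adjusted p = 0.403).

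The stalk recruits the translation factors that hydrolyse GTP. Rplp0, its base, measured 14.18 in both knockout arrays, against 14.04 and 14.07 in the control arrays. Rplp2, which binds to it, measured 14.48 and 14.39 in the knockout arrays, against 14.36 and 14.37 in the control arrays. The differences of 0.12 and 0.07 were within 1 standard error (0.13) of 0, although neither pair of groups overlapped. Rps9, a small subunit protein, and Rpl11, which can bind Mdm2 and so links ribosome assembly to p53, were chosen after their values were seen as the other members with an unadjusted p under 0.05 in the positive direction. They differed by 0.36 ± 0.15 and 0.35 ± 0.14 (SE).

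**Figure D3:**
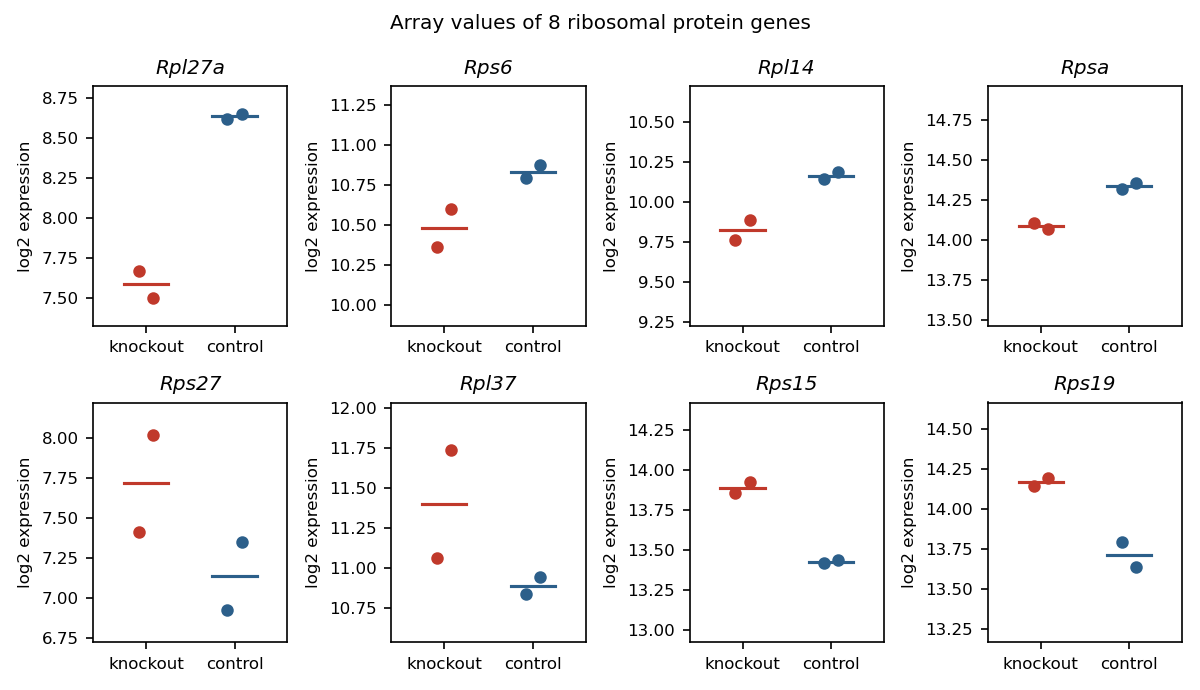
Log2 expression (y axis, 1.5 log2 units tall in every panel) of Rpl27a and the 7 genes with the next largest falls and rises on the 2 knockout arrays (red, left) and the 2 control arrays (blue, right), with group means as lines. Rpl27a has the widest gap, and Rps27 and Rpl37 the widest spread within the knockout pair.

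The groups did not overlap for 28 of the 42 genes (66.7%), 21 higher and 7 lower in the knockout, against 52.3% of all genes, 23.1% higher and 29.2% lower. The 95% interval of a member's difference had a median half-width of 0.31, and it lay wholly within 0.5 of 0 for 27 of the 42. For Rps15 it ran from 0.16 to 0.77. A missed call therefore does not show that a gene was equal in both groups.

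Gene span and a measure of RNA quality are set beside the slight positive shift, whose causes were not tested. The 42 genes are short, with a median genomic span of 3.31 kb, against 23.3 kb for all genes at a mean of 6 or more. Genes at a mean of 6 or more and no longer than the longest of the 42 had a median difference of 0.11. The 3' probe set of Actb, the beta-actin gene, exceeded its 5' probe set, a gap commonly read as a measure of RNA quality. The gap was 1.11 and 0.80 in the knockout arrays, against 3.02 and 2.97 in the control arrays. For Gapdh it was 0.40 and 0.27 in the knockout arrays, against 1.24 and 1.48 in the control arrays. It was larger in both control arrays for both genes, so its effect and that of the knockout cannot be told apart. After removal, from each array, of its trend with mean level and genomic span, the median difference of the 42 was -0.0089, with 19 above and 23 below 0, and Rpl27a differed by -1.24 (adjusted p = 0.0181). The part of these gaps in any single gene's difference, that of Rpl27a included, was not tested.

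Brightness was looked at as well. Of the 42 probe sets, 33 had a mean of 13 or more, between 13.66 and 14.42, on arrays whose brightest probe set lay at 14.66 to 14.78. Their differences had a median of 0.09 and a standard deviation of 0.15. The 102 other genes at this brightness had a median of -0.05 and a standard deviation of 0.25. None of the 102 was called in limma either, against 4.14% of all genes. At an unadjusted p under 0.05, 8 were higher and 13 lower (7.84% and 12.7%, against 9.06% and 14.9% of all genes). The 9 dimmer genes, Rpl27a among them, had a standard deviation of 0.51. Whether nearness to the top of the scale narrowed the differences was not tested.

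For all 9 dimmer genes the annotation also held a brighter probe set (13 or more) that listed the symbol together with others, mostly pseudogenes or gene models. At these shared probe sets Rps27 differed by -0.08, where its own probe set differed by 0.58. Rpl37 differed by 0.13 (own 0.51), Rpl39 by 0.07 (own 0.33), Rps6 by -0.08 (own -0.35), Rpl14 by -0.24 (own -0.34) and Rps25 by 0.36 (own -0.12). Rpl12 differed by 0.13 (own 0.20) and Rps16 by -0.04, and Rpl27a by 0.05 (own -1.05). These are the brightest shared probe set of each gene, and at it the difference was smaller in size than at the gene's own probe set for 7 of the 9. Other bright shared probe sets did not all follow, since one listing Rpl14 differed by 0.40 and one listing Rpl12 by 0.35.

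**Figure D4:**
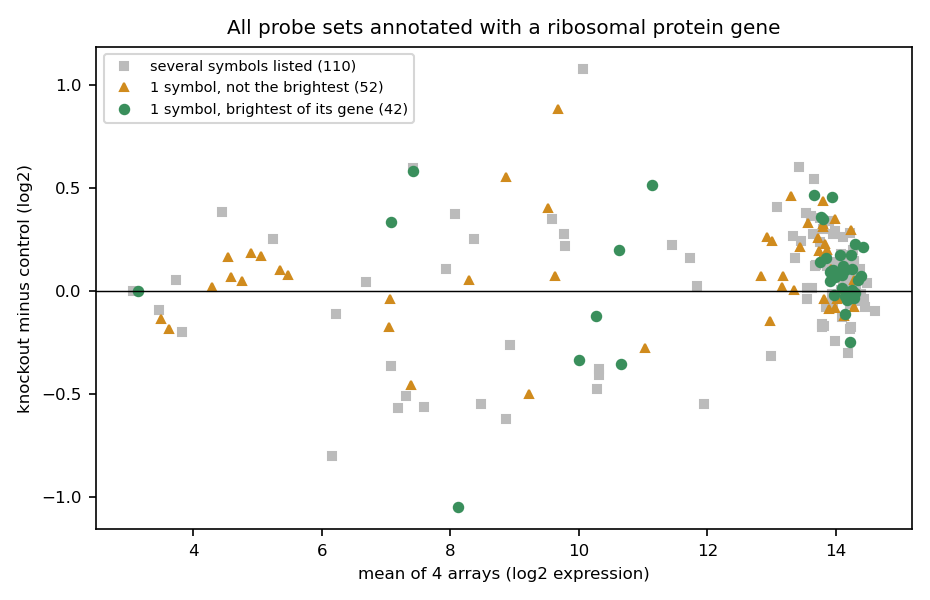
Difference, knockout minus control on the log2 scale (y axis), against the mean of the 4 arrays (x axis, log2 expression) for the 42 representative probe sets (circles), the 52 other probe sets with 1 symbol (triangles) and the 110 that list several symbols (squares). Differences spread more widely below 13 than at the bright end, and Rpl27a at 8.11 is the lowest point.

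Probe sets of the same gene also differed among themselves. Of the 42 genes, 18 had more than 1 own probe set with a mean level of at least 6, and the range of differences within a gene had a median of 0.22 and reached 0.76. In 7 of the 18 the signs were mixed. Rps10 ran from -0.46 to 0.31 over 6 probe sets, Rps24, another gene mutated in Diamond-Blackfan anaemia, from -0.50 to 0.26 over 5, and Rpl35, which lies near the tunnel exit, from -0.11 to 0.44 over 5. Rpl37a ran from 0.17 to 0.88 over 3. Of the 52 own probe sets that were not the brightest, none was called in limma over all 45037 probe sets (7 higher and none lower at an unadjusted p under 0.05), where 0.546% of all probe sets were called.

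A further 27 ribosomal protein symbols, such as Rpl3, Rpl5, Rps13 and Rplp1, appeared only on probe sets that list several symbols, and these genes are therefore not among the 42. The 110 probe sets that listed any ribosomal protein symbol with others had a median difference of 0.05, from -0.80 to 1.08, with 67 above and 43 below 0. None of the 110 was called in limma, against 0.546% of all 45037 probe sets (8 higher and 10 lower at an unadjusted p under 0.05). The 78 of them at 13 or more had a median of 0.08, the same as the 42, and ran from -0.30 to 0.60. The 26 with a mean of at least 6 but under 13 had a median of -0.19, with 12 above and 14 below 0. Of these 26, 2 were higher and 9 lower at an unadjusted p under 0.05 in limma.

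Ribosomal proteins outside the naming rule and related pathways were counted beside these genes. Fau, whose product is a ubiquitin-like protein fused to a small subunit protein, measured 13.83 and 13.82 in the knockout arrays, against 13.53 and 13.50 in the control arrays. The difference was 0.31 ± 0.13 (SE, adjusted p = 0.207). Rack1 was not among the genes tested. Of 6 measured paralogs none was called in limma, against 4.14% of all genes. At an unadjusted p under 0.05, 2 of the paralogs were higher (33.3%, against 9.06% of all genes) and none lower (14.9% of all genes). The largest difference was that of Rpl22l1, the paralog of Rpl22, at 0.60 ± 0.16 (SE, adjusted p = 0.0762). Rpl22 itself differed by 0.07 at its brightest probe set and by 0.46 at another bright one.

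Of 76 mitochondrial ribosomal protein genes, which serve the separate ribosome of mitochondria, 7 were called higher and 2 lower (11.8%, against 4.14% of all genes). Their median difference was 0.28. At an unadjusted p under 0.05 in limma, 30 were higher and 6 lower (39.5% and 7.89%, against 9.06% and 14.9% of all genes). The largest called were Mrpl4 (1.19 ± 0.16, adjusted p = 0.0283), Mrpl27 (1.01 ± 0.19, adjusted p = 0.0426), Mrpl38 (0.96 ± 0.15, adjusted p = 0.0328) and Mrpl34 (0.86 ± 0.18, adjusted p = 0.0483), each with limma's SE. Of 70 genes of ribosome biogenesis and RNA polymerase I, 5 were called higher and none lower (7.14%), with a median difference of -0.03. In this list 13 were higher and 9 lower at an unadjusted p under 0.05 in limma (18.6% and 12.9%). Eif6, which keeps the large subunit from joining too early, rose by 1.05, Rrp1 by 0.98, Rrp9, a protein of the U3 particle that processes ribosomal RNA, by 0.79 and Nop2, a ribosomal RNA methyltransferase, by 0.79 (adjusted p between 0.0282 and 0.0425 in limma). Leaving out any 1 array ended all 8 of these named calls, and with every probe set tested singly those of Mrpl27, Mrpl38, Mrpl34, Eif6, Rrp9 and Nop2 were lost too.

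Of 20 translation elongation and other TOP genes, 3 were higher and 1 lower at an unadjusted p under 0.05 in limma, with a median difference of -0.04. Past the threshold, 2 were called higher and none lower (10%, against 4.14% of all genes). They were Ssr2, a subunit of the translocon-associated complex (1.22 ± 0.14, SE, adjusted p = 0.0186), and Btf3, a subunit of the nascent chain complex (0.79 ± 0.15, SE, adjusted p = 0.0434). With every probe set tested singly, 1 of these 2 calls was lost. Leaving out any 1 array ended both calls. Of 20 regulators of ribosome synthesis none was called in limma, against 4.14% of all genes. At an unadjusted p under 0.05, 2 were higher and 2 lower (10% each, against 9.06% and 14.9% of all genes). Tsc2, an inhibitor of mTOR signalling, had the largest difference there, at 0.66 ± 0.17 (SE, adjusted p = 0.0695). Myc and Mycn, activators of ribosome synthesis, differed by 0.12 ± 0.13 and -0.15 ± 0.15 (SE).

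The array medians lay between 4.91 and 4.95. Snai1 itself differed by -0.63 ± 0.16 (SE, adjusted p = 0.0692) at levels within the background range, so it does not check the labels. The 8 ES cell markers had means from 9.60 to 14.11. Called higher in limma were 3 of them (Pou5f1, Nanog and Esrrb, 37.5%), against 1.98% of all genes, and none was called lower. Of the 8 differences 6 lay above and 2 below 0, the lowest being that of Fgf4 at -0.38 ± 0.21 (SE, adjusted p = 0.321). The 12 feeder fibroblast markers had array medians of 7.82 and 7.06 in the knockout, against 8.49 and 7.58 in the control. All 12 had means above the background range, and none was called in limma, against 4.14% of all genes. At an unadjusted p under 0.05, none was higher (9.06% of all genes) and 2 were lower (16.7%, against 14.9% of all genes). The part of feeder RNA in the ribosomal protein values was not tested, and in such bulk samples fewer cells of a type and less RNA per cell cannot be told apart.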

How the data were processed

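Transcript levels of 2 Snai1 knockout and 2 control ES cell samples were measured on 1-colour Affymetrix arrays. The authors deposited log2 values per probe set (45101), made with RMA, and named limma, per the submitters' processing notes. The sources used here give no versions or settings. Gene symbols came from the 2016 platform annotation of GEO. Symbols were checked by gene ID against RefSeq (GRCm38.p6), which changed 0. With 1 symbol each, 34945 probe sets remained, and the brightest of each gene gave 18193 genes. They were compared with limma 3.58.1 in R 4.3.3 (lmFit and eBayes, 4 arrays, no covariates, two-sided, Benjamini-Hochberg adjustment). The number of arrays limits the precision, with 2 residual and 5.31 prior degrees of freedom. The fit was tested on simulated data beforehand. There it called 0 of 67 genes changed by 0.5 on the log2 scale, 5 of 67 changed by 1 and 42 of 66 changed by 2. Named were Rpl27a, called members, the 4 largest differences each way, the 3 brightest and dimmest, genes whose probe sets disagreed, and up to 4 called genes, or the largest difference, per list. Members and lists were chosen with earlier results of these data known. Alternatives covered the prior variance, normalization, dim genes, probe set choice, gene span, a fold minimum, a replicate block and each array left out.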

Additional observations from a re-analysis of the deposited data

How the results depend on the processing

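Over all genes the 754 calls became 481 with an intensity trend in the prior variance, 1224 with dim genes (mean under 6) left out, 321 with a gene's probe sets averaged, 276 with each of the 34945 probe sets of 1 symbol tested singly (246 over all 45037), and 4 to 50 with 1 array left out. Among the 42 ribosomal protein genes the 1 call became 3 with the trend (Rpl27a, Rps15 and Rps19), 0 with the mean of all probe sets, and 0 without each array in turn. Rpl27a differed by -0.59 with the mean of its probe sets and by -1.13 to -0.96 with 1 array left out, all short of the threshold. Under every other alternative run it stayed past it. Rpl27a minus the median of the others was -0.999 after quantile normalization, -0.67 with the mean of probe sets and -1.28 with the trend in span and mean level removed. The median difference of the members was 0.027 after quantile normalization, 0.12 after median centring, 0.10 without probe sets of the suffixes s and x, -0.0089 with the trend in span and mean level removed, and 0.055 to 0.10 with 1 array left out. Of the 10 named genes called in other lists, 10 were lost without each array in turn, 7 with every probe set tested singly, 4 with averaged probe sets, 2 without probe sets of the suffixes s and x, 1 (Rrp9, adjusted p = 0.0502) with the intensity trend and 1 (Mrpl34, adjusted p = 0.100) with the trend in span and mean level removed. Replicate numbers are shared by the groups. With the replicate block the calls numbered 3092 over all genes and 5 among the 42 (Rpl27a lower, Rpl37, Rps15, Rps19 and Rps27 higher), and the deviations of replicate 1 correlated at 0.29 between the groups. The labels give the number no meaning. Some of these fits also held fewer arrays or fewer genes. The causes of these changes were not tested.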
